A study of Mus musculus with 48 samples.

Results

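Expression of the genes of cholesterol synthesis and of the SREBP2 pathway was followed in the livers of 48 mice. The set was a list of 27 symbols, given by name. Of these, 26 were matched to a row of the count table, which holds 55414 genes. Hmgcs1 was not matched to an identifier in the tables used and was not analysed here. All 26 passed the filter on low counts, which left 15414 genes to test.

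SREBP2, the product of Srebf2, is a transcription factor that is made as a membrane protein of the endoplasmic reticulum. When sterols are scarce, SCAP escorts it to the Golgi, where it is cleaved and sent to the nucleus. INSIG1 and INSIG2 hold SCAP in the endoplasmic reticulum when sterols are plentiful. Nuclear SREBP2 raises transcription of the enzymes that build cholesterol from acetyl-CoA, and the liver is a main site of that synthesis.

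The mice came from the FCG mouse model on a C57BL/6 background, in which gonad type and sex chromosomes are inherited separately. All carried either XX or XY-, a Y chromosome from which Sry, the testis-determining gene, is deleted. Mice without an Sry transgene (SryTg) have ovaries and mice with it (XX;SryTg and XY-;SryTg) have testes. The 8 groups of 6 mice are written here as XX or XY with ovaries (Ov) or testes (Te), and as Intact or gonadectomised (GDX), Ov and Te in GDX mice standing for the gonad they were born with. Gonads were removed at 75 days of age. All mice began a high-fat diet (HFD), with 60% of calories from fat, at 15 to 17 weeks of age, and stayed on it, per the labels, for 11 weeks if intact and for 15 weeks if GDX. The study's methods give other durations, which are also longer for GDX. There was no group on another diet. GDX cannot be told apart from the longer time on the diet, the older age at its end, or any other difference between the intact and GDX cohorts.

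Between 13071874 and 20045141 reads per library fell on genes, and every value below is in CPM, the reads of a gene relative to the TMM-scaled library size, with trios giving the lowest, median and highest mouse. Reads outside annotated genes made up 8.52 to 11.3% of the reads in GDX libraries and 3.47 to 6.20% in intact libraries, without overlap. In XY Te Intact replicates 1 to 4, 16.2 to 18.9% of reads mapped to several places and 11.7 to 16.5% were unmapped. In every other library these shares were at most 14.4% and 11.0%. Xist read 166 to 1203 CPM in XX mice and 0.437 to 7.49 CPM in XY mice. The hepatocyte markers (Alb, Apoa1, Ttr, Cps1, Tat and Hnf4a) summed to 58980.0 CPM or more in every library. Each mouse gave 1 library. In bulk tissue, fewer cells of a type and less RNA per cell cannot be told apart.

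The RefSeq promoter table (build GRCm38.p6, 250 bases before to 50 after each start) held 27 windows for 21 of the 27 listed genes. It held none for Fdps, Fdft1, Sqle, Stard4, Soat2 and Npc1. The letters CCAAT, which the factor NF-Y reads, were searched on both strands, as were GGGCGG (a GC box) and the sterol regulatory element TCACNCCAC. CCAAT was in a window of 19 of the 21 genes (90.5%), against 41.1% of all 27025 genes in the table, and in 70.4% of the members' windows against 37.4% of all windows. GGGCGG was also in 19 of 21 (90.5%), against 38.2% of all genes. TCACNCCAC was in 1 of the 21, Hmgcs1, and in 1.24% of all windows. Its stricter form, with A before it and C at the open letter, was in 0 of the members' windows and in 0.0913% of all. Only exact letters were searched, so elements that differ from them, or that lie outside the windows, were missed. The 250 bases before the start are printed for the members that varied most closely with Sqle and have a single window, since several carry CCAAT more than once, and then for Insig2 (the window farthest upstream of its 3, and the one of them that holds CCAAT) and Lbr, which behaved differently in the livers. Capitals mark CCAAT or its reverse complement ATTGG.
Cyp51 (chr5:4104698-4104947, - strand): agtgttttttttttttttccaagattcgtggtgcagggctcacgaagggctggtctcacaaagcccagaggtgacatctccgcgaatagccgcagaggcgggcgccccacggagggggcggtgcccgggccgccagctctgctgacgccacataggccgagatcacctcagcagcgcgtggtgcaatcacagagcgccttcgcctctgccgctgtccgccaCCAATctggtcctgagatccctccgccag
Mvd (chr8:122443423-122443672, - strand): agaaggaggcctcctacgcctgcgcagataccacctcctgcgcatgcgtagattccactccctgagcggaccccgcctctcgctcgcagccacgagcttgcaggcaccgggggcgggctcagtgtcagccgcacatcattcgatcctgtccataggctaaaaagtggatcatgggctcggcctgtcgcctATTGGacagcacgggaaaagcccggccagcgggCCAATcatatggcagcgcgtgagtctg
Msmo1 (chr8:64733579-64733828, - strand): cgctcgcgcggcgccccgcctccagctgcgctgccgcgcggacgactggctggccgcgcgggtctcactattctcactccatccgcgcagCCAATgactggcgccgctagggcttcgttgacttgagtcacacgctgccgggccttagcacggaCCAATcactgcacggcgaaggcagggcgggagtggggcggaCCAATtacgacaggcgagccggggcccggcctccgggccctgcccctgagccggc
Nsdhl (chrX:72918271-72918520, + strand): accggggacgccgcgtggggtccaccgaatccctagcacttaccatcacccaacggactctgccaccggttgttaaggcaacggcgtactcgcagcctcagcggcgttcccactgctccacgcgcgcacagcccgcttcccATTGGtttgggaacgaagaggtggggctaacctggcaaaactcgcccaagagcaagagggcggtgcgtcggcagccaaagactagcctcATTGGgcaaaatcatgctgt
Mvk (chr5:114444019-114444268, + strand): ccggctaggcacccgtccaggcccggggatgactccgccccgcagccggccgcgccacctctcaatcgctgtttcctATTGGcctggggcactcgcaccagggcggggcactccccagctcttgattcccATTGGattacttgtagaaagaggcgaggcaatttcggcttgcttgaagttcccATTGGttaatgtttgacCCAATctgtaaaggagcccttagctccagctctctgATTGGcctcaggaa
Insig2 (chr1:121332590-121332839, - strand): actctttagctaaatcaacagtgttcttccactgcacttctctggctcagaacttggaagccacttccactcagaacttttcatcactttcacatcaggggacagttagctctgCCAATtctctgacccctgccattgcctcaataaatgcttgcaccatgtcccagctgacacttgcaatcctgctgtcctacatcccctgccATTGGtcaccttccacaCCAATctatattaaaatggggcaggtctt
Lbr (chr1:181842402-181842651, - strand): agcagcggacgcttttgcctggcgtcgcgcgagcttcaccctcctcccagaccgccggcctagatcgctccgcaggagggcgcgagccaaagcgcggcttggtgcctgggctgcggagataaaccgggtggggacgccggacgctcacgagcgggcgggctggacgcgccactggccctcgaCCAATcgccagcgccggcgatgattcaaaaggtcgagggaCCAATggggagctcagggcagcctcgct

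Among the regulators, Srebf2 (ENSMUSG00000022463) was low in intact mice and higher after GDX. Srebf2 read 25, 28.8 and 56.7 in XX Ov, 19.5, 29.6 and 38.5 in XY Ov, 25.2, 34.7 and 46.5 in XX Te and 25.7, 28.9 and 48.1 in XY Te in intact mice. The GDX trios were 43.8, 54.1 and 65 in XX Ov, 36.5, 43.3 and 46.4 in XY Ov, 36, 45.5 and 56.8 in XX Te and 39.4, 44.9 and 47.9 in XY Te. The medians of all 4 GDX groups lay above those of all 4 intact groups, although single intact mice reached the GDX range.

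Insig1 (ENSMUSG00000045294), a classical SREBP target as well as a brake on it, had lower medians after GDX than in intact mice of the same genotype. In intact mice Insig1 read 156, 223 and 265 in XX Ov, 141, 163 and 231 in XY Ov, 122, 259.5 and 292 in XX Te and 128, 164 and 372 in XY Te. GDX mice read 128, 172 and 211 in XX Ov, 75.3, 106 and 148 in XY Ov, 102, 118 and 163 in XX Te and 104, 111 and 239 in XY Te. The highest value of all belonged to a single XY Te Intact mouse.

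Insig2 (ENSMUSG00000003721), whose liver transcript is known to respond to feeding and insulin, separated the groups more clearly. Insig2 read 158, 202 and 303 in XX Ov, 114, 129 and 210.3 in XY Ov, 206, 310.1 and 460.4 in XX Te and 172, 255 and 335 in XY Te in intact mice. After GDX it read 138, 154 and 178 in XX Ov, 64.9, 77.3 and 117 in XY Ov, 116, 159 and 233 in XX Te and 53, 69.2 and 97.6 in XY Te. In both GDX pairs every XX mouse lay above every XY mouse of the same gonad, the lowest XX values being 138 and 116 CPM and the highest XY values 117 and 97.6 CPM. Of all genes, 10.4% and 6.43% separated in this direction in the Ov and Te pairs. In intact mice the Te medians lay above the Ov medians in XX and in XY mice, with overlap in each pair. Scap ranged from 32.9 to 94.2 CPM over the 48 mice.

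**Figure D1:**
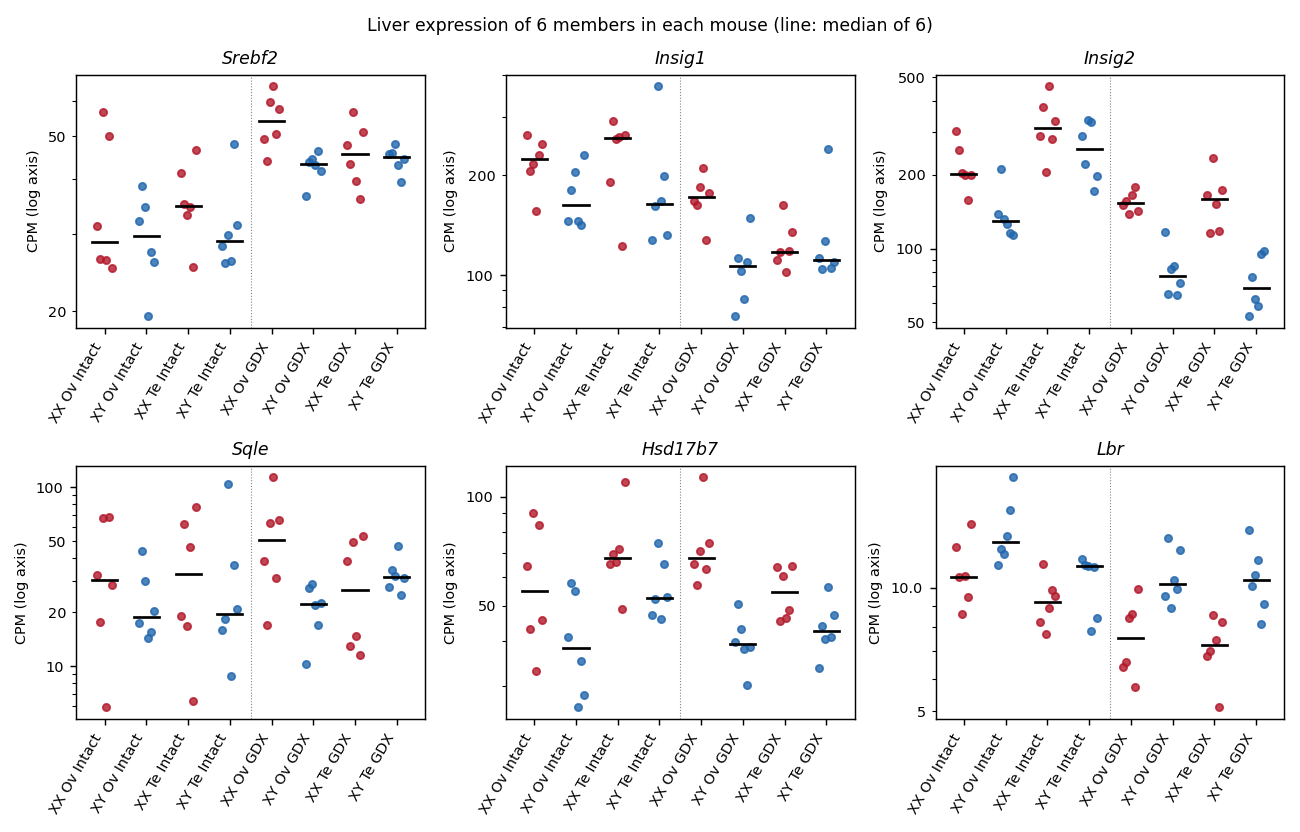
Each point is the CPM (log axis) of a gene in 1 mouse, by group on the x axis, for Srebf2, Insig1, Insig2, Sqle, Hsd17b7 and Lbr. Red points are XX, blue points XY, black lines medians of 6, and the dotted line parts intact from GDX mice. For Insig2 the XX Ov GDX mice sit between 138 and 178 CPM and the XY Ov GDX mice between 64.9 and 117 CPM.

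The mevalonate and isoprenoid enzymes Acat2, Mvk, Pmvk, Mvd, Idi1, Fdps and Ggps1 carry acetyl-CoA to farnesyl and geranylgeranyl diphosphate. Idi1 (ENSMUSG00000058258), the isopentenyl diphosphate isomerase, differed widely between mice of 1 group. In intact mice Idi1 read 3.23, 18.6 and 27.3 in XX Ov, 6.61, 14.2 and 16.2 in XY Ov, 5.02, 14.5 and 31.6 in XX Te and 7.99, 10.9 and 44 in XY Te. The GDX trios were 7.91, 13 and 26.9 in XX Ov, 3.91, 6.41 and 7.39 in XY Ov, 4.31, 8.78 and 12.5 in XX Te and 6.27, 9.35 and 14.3 in XY Te. Its ranges in XX Ov GDX and XY Ov GDX did not meet.

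Fdps, the farnesyl diphosphate synthase, had few reads, from 27 to 329 per library. Fdps read 2.24, 4.17 and 10.3 in XX Ov, 2.2, 3.69 and 5.72 in XY Ov, 2.36, 6.41 and 14.1 in XX Te and 2.79, 3.69 and 12.5 in XY Te in intact mice. GDX mice read 2.62, 8.56 and 19.9 in XX Ov, 2.5, 3.19 and 5.95 in XY Ov, 2.12, 5.83 and 9.67 in XX Te and 4.02, 5.22 and 8.66 in XY Te. The groups overlapped, and the XX Ov GDX median was the highest of the 8.

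Ggps1, which makes geranylgeranyl diphosphate for protein prenylation and so branches off the sterol route, passed the test in both GDX contrasts given further on and not in that of the chromosomes. In intact mice Ggps1 read 11.9, 25.2 and 32.2 in XX Ov, 19.1, 22.1 and 31.9 in XY Ov, 11.6, 16.6 and 21.8 in XX Te and 12, 20.6 and 25.2 in XY Te. After GDX it read 9.69, 10.6 and 12.8 in XX Ov, 10.5, 11.7 and 12.2 in XY Ov, 9.75, 11.4 and 13.2 in XX Te and 10.2, 11.1 and 13.8 in XY Te. All 4 GDX groups stayed within 9.69 to 13.8 CPM, and intact mice reached 32.2 CPM. Ggps1 overlaps Arid4b on the other strand, and the strand setting of the counting is not given in the sources used here. Reads from the stretch they share could have been left uncounted as ambiguous or given to the wrong gene. The same holds for Scap, Mvd, Fdft1, Lss and Npc1, which also overlap a gene on the other strand. Reads that fit both Acat2 and its near copy Acat3 would map to several places, and such reads were not counted on genes.

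From farnesyl diphosphate, Fdft1, Sqle, Lss and Cyp51 make squalene, its epoxide, lanosterol and its demethylated product. Sqle (ENSMUSG00000022351), the squalene epoxidase and a rate-limiting step, spanned 5.88 to 113 CPM, a 19.3-fold range. Sqle read 5.88, 30.4 and 68.3 in XX Ov, 14.4, 18.8 and 44 in XY Ov, 6.36, 32.6 and 77.4 in XX Te and 8.86, 19.6 and 105 in XY Te in intact mice. The GDX trios were 17, 50.7 and 113 in XX Ov, 10.2, 22.2 and 28.9 in XY Ov, 11.5, 26.6 and 53.4 in XX Te and 25.1, 31.4 and 47.1 in XY Te. All groups overlapped in intact mice, and XX Ov GDX had the highest median.

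Cyp51 (ENSMUSG00000001467), the lanosterol demethylase, was arranged in the same way. In intact mice Cyp51 read 32.1, 89.3 and 144 in XX Ov, 43.6, 60.5 and 89.6 in XY Ov, 34, 90.1 and 182 in XX Te and 42.3, 77.5 and 252 in XY Te. GDX mice read 65.6, 112 and 233 in XX Ov, 41.4, 56.2 and 69.9 in XY Ov, 52.7, 86.9 and 124 in XX Te and 49.6, 84.7 and 116 in XY Te. A single XX Ov GDX mouse lay below the highest XY Ov GDX mouse, with the lowest XX value at 65.6 and the highest XY value at 69.9 CPM. Lss, the lanosterol synthase, read 12.2, 20.3 and 56 CPM in the 24 intact mice and 21.9, 31.3 and 73.1 in the 24 GDX mice.

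The late steps, from lanosterol to cholesterol, are run by Tm7sf2, Lbr, Msmo1, Nsdhl, Hsd17b7, Ebp, Sc5d and Dhcr7. Nsdhl and Ebp lie on the X chromosome. Hsd17b7, the keto-reductase of the demethylation steps, was higher in XX mice. Hsd17b7 read 33, 55 and 90.1 in XX Ov, 26.1, 38 and 57.8 in XY Ov, 49, 67.5 and 109.8 in XX Te and 45.8, 52.5 and 74.5 in XY Te in intact mice. After GDX it read 56.8, 67.8 and 113 in XX Ov, 30.2, 39.1 and 50.6 in XY Ov, 45.4, 54.4 and 64.2 in XX Te and 33.5, 42.5 and 56.1 in XY Te. The XX and XY mice of the Ov GDX pair did not overlap.

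Lbr, a nuclear envelope protein that also has sterol C14-reductase activity, went against the others. In intact mice Lbr read 8.62, 10.6 and 14.3 in XX Ov, 11.3, 12.9 and 18.6 in XY Ov, 7.73, 9.22 and 11.4 in XX Te and 7.86, 11.3 and 11.7 in XY Te. The GDX trios were 5.73, 7.52 and 9.91 in XX Ov, 8.9, 10.2 and 13.2 in XY Ov, 5.11, 7.24 and 8.57 in XX Te and 8.14, 10.4 and 13.8 in XY Te. Its XX medians were below the XY medians in all 4 pairs, with overlap in each.

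Ebp, the sterol isomerase, fell in GDX mice. It read 151, 206 and 409 CPM in the 24 intact and 121, 159 and 220.4 CPM in the 24 GDX mice. Sc5d, the lathosterol oxidase, read 395, 591 and 809 CPM in 24 XX and 318, 428 and 894 CPM in 24 XY mice. Both genes overlapped between the groups compared.

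Of the transport and esterification genes, Npc1, which exports cholesterol from lysosomes, read 68.6, 99.9 and 204 CPM in intact and 130.4, 156 and 217 CPM in GDX mice. Stard4, a cytosolic sterol carrier, read 74.6, 124 and 179.8 and 61.3, 95.6 and 133 CPM. Soat2, which esterifies cholesterol in the liver, was the steadiest member, at 21.7 to 42.2 CPM over all mice.

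Of the pathway's transcripts, most were higher in XX than in XY livers. Averaged over gonad type and GDX, 18 of the 26 members passed an adjusted p of 0.05 in edgeR's quasi-likelihood test, 17 of them higher in XX and Lbr lower. Over all genes, 36.7% passed in either direction and 21.9% passed as higher in XX. The members' median log2 fold change was 0.39, against 0.05 over all genes tested. DESeq2 called 12 of the members.

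By role, the regulators Srebf2, Scap, Insig1 and Insig2 were all higher in XX. The increase was 0.76 ± 0.10 (adjusted p = 1.6e-08) on the log2 scale for Insig2 and 0.22 ± 0.09 (adjusted p = 0.042) for Srebf2, each ± its standard error. Of the mevalonate enzymes, Fdps was higher by 0.63 ± 0.22 (adjusted p = 0.018), and Acat2, Mvk and Pmvk rose by 0.42 to 0.46. Mvd, Idi1 and Ggps1 did not pass the test, with values of 0.27, 0.37 and -0.09.

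In the squalene steps Fdft1 and Lss rose by 0.32 and 0.42, and Sqle and Cyp51, the more variable pair, did not pass at 0.51 ± 0.26 (adjusted p = 0.13) and 0.42 ± 0.18 (adjusted p = 0.068). Hsd17b7 led the late steps at 0.53 ± 0.10 (adjusted p = 5e-05), with Dhcr7, Msmo1, Nsdhl and Sc5d between 0.41 and 0.50. Lbr was lower in XX, at -0.38 ± 0.07 (adjusted p = 4.6e-05). Tm7sf2, Ebp and Soat2 did not pass, at 0.14, 0.17 and 0.15. Stard4 and Npc1 rose by 0.18 and 0.22.

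Of these 18 calls, Insig2, Acat2, Mvk, Lbr, Hsd17b7 and Sc5d held under all 7 alternative settings and without each library in turn. Srebf2, Nsdhl, Stard4 and Npc1, with adjusted p from 0.039 to 0.048, lost the call in 29, 25, 33 and 35 of 55 settings. Scaling to library totals left 6 calls, 5 of them higher in XX, and also turned the split over all genes, from 59.8% of calls higher in XX to 28.2%. The median of all genes moved from 0.05 to -0.05 and that of the members from 0.39 to 0.30. Without XY Ov Intact replicate 6, 11 members passed.

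Genes of other liver cells differed between XX and XY mice as well. Of the Kupffer cell markers, 5 of 6 were lower in XX, with a summed level of 133 to 705 CPM in XX mice and 278 to 1003 CPM in XY mice. All 3 neutrophil markers that could be tested were lower in XX, with a summed level of 0.0786 to 28.4 against 1.14 to 781 CPM, Ly6g having a median of 0 reads in XX. Of the lymphocyte markers 4 of 6 were lower, of the sinusoidal endothelial markers 1 of 5. Of the cholangiocyte markers 2 of 5 were higher, of the stellate markers 1 of 6, and 0 of 6 hepatocyte markers differed. The part of these cells in the members' differences was not tested.

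More members passed after GDX than in intact mice, but so did a larger share of all genes, and the change itself did not pass a test. In intact mice 3 members passed, Insig2 at 0.49 ± 0.14 (adjusted p = 0.012), Hsd17b7 at 0.46 ± 0.15 (adjusted p = 0.033) and Sc5d at 0.34 ± 0.11 (adjusted p = 0.035), all higher in XX, where 10.7% of all genes passed and 4.27% passed as higher. That count was 7 without XY Te Intact replicate 3 and 1 without XX Ov Intact replicate 3, XX Te Intact replicate 6, XY Ov Intact replicate 5 or 6, or XY Te Intact replicate 1, 2, 4 or 6. In GDX mice 9 passed, 8 of them higher in XX, where 34.3% of all genes passed and 19.5% passed as higher. These were Insig2 (1.03), Nsdhl (0.65), Mvk, Dhcr7, Hsd17b7, Acat2, Sc5d and Fdft1 (0.44), with Lbr lower (-0.52). Leaving out XY Te GDX replicate 4 raised the count to 14.

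For the interaction of chromosomes with GDX, 0 members passed in edgeR and 0 in DESeq2, and 2.12% of all genes did. Only Insig2 had an unadjusted p under 0.05, as did 13.8% of all genes, with a difference of 0.53 (95% interval 0.15 to 0.91, adjusted p = 0.14).

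The 4 pairs of XX and XY groups were then compared separately. These contrasts were chosen after the group means had been seen. In Ov GDX mice 17 of 26 members passed, 16 of them higher in XX, against 19.1% of all genes in either direction and 8.69% higher in XX. The members' median log2 fold change was 0.83.

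Fdps was higher by 1.38 ± 0.44 (adjusted p = 0.02), Idi1 by 1.27 ± 0.41 (adjusted p = 0.022) and Msmo1 by 1.21 ± 0.37 (adjusted p = 0.017). Cyp51, Nsdhl and Mvk rose by 1.13, 1.07 and 1.02, and the regulators Insig2 and Insig1 by 0.93 and 0.70. Sqle had a similar size but a wide error, 1.36 ± 0.53 (adjusted p = 0.067). Srebf2 itself did not pass, at 0.35 ± 0.17 (adjusted p = 0.15), and Lbr was lower, at -0.49 ± 0.15 (adjusted p = 0.014).

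In 11 members every XX Ov GDX mouse lay above every XY Ov GDX mouse, which 10.4% of all genes did, and in the Te GDX pair only Insig2 of the 26 did. The 11 were Insig2, Scap, Acat2, Mvk, Idi1, Fdft1, Msmo1, Hsd17b7, Sc5d, Dhcr7 and Stard4. Separation was counted on TMM-scaled CPM alone, and not on library totals. The TMM factors of the Ov GDX pair did not overlap either. They were 0.965 to 1.054 in XX and 1.095 to 1.178 in XY mice, which lowers XY values relative to XX. Without XX Ov GDX replicate 4 the count of members passing the test fell from 17 to 9, and with library totals it was 7.

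The Te GDX pair gave 2 members, against 19.4% of all genes. Insig2 was higher in XX by 1.12 ± 0.20 (adjusted p = 2.2e-05) and Lbr was lower, at -0.55 ± 0.15 (adjusted p = 0.0052). The members' median was 0.12. The difference between the pairs was tested directly, and 0 members and 0 of all 15414 genes passed in edgeR, with 0 members in DESeq2. At an unadjusted p under 0.05 there were 10 members, all with the larger XX excess in Ov GDX mice, against 1.07% of all genes in either direction and 0.545% in this one. Among them were Stard4 at 0.70 (95% interval 0.30 to 1.11) and Mvd at 1.44 (0.20 to 2.68). The members' median difference was 0.61. This contrast was also chosen after the group means had been seen, and members varied together from mouse to mouse, so the 10 are not independent.

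In intact mice, the Ov pair gave 1 member, Insig2 at 0.65 ± 0.19 (adjusted p = 0.027), against 7.79% of all genes. This count was 0 without XX Ov Intact replicate 1 or 2 or XY Ov Intact replicate 4, 5 or 6, 2 without XY Ov Intact replicate 1 or 2, and 4 without XX Ov Intact replicate 4. The Te pair gave 0 in edgeR and in DESeq2, against 2.1% of all genes, with 0 at an unadjusted p under 0.05, against 13.2% of all genes, and 1 without XY Te Intact replicate 3.

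**Figure D2:**
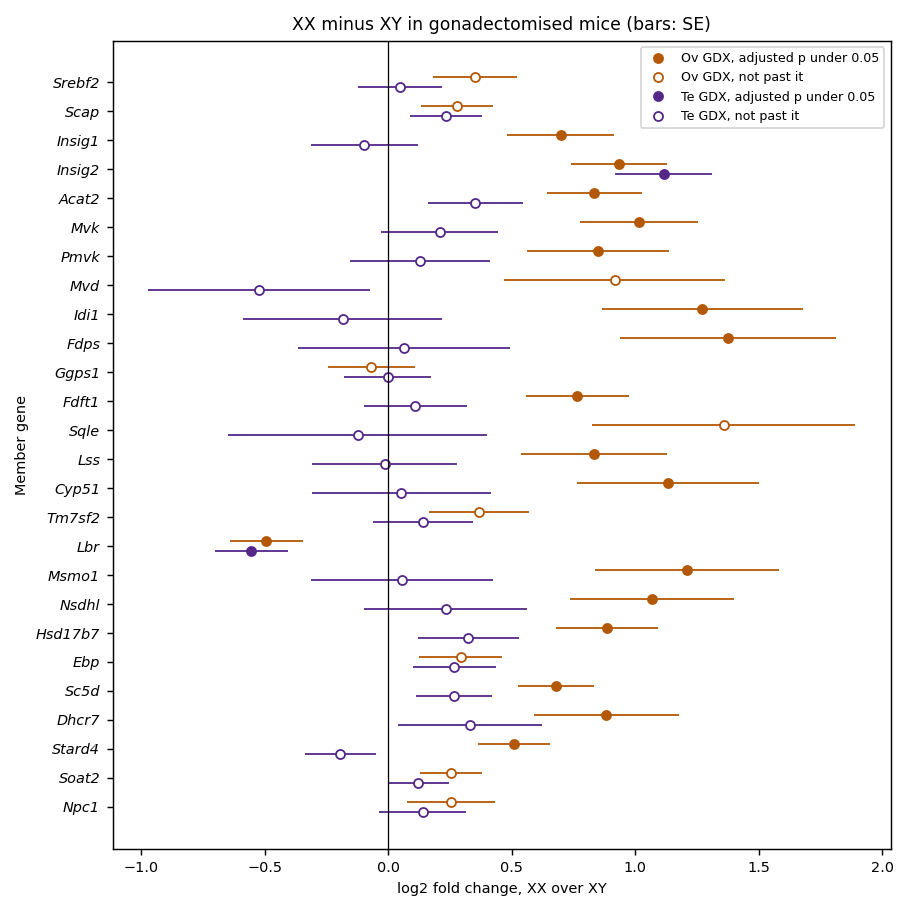
log2 fold change of XX over XY (x axis) for each of the 26 members (y axis), in Ov GDX mice (orange) and Te GDX mice (purple), with bars of 1 standard error. Filled points passed an adjusted p of 0.05, 17 in Ov GDX and 2 in Te GDX, and Insig2 and Lbr passed in both.

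The mean over the 26 members of each gene's log2 deviation from its average over all mice gave each mouse a single value. In XX Ov GDX this mean ranged from -0.12 to 0.82 with a median of 0.29, and in XY Ov GDX from -0.58 to -0.20 with a median of -0.34. The pair did not overlap on the TMM scale, and the mean was not computed on library totals. TMM factors were 0.965 to 1.054 in XX Ov GDX and 1.095 to 1.178 in XY Ov GDX. A higher factor lowers every CPM of a library, so the separation may depend on the scaling. In XX Te GDX it ranged from -0.40 to 0.29 and in XY Te GDX from -0.32 to 0.21. The lowest mouse of all, at -0.71, was in XX Ov Intact, and the highest, at 0.89, was XY Te Intact replicate 3.

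**Figure D3:**
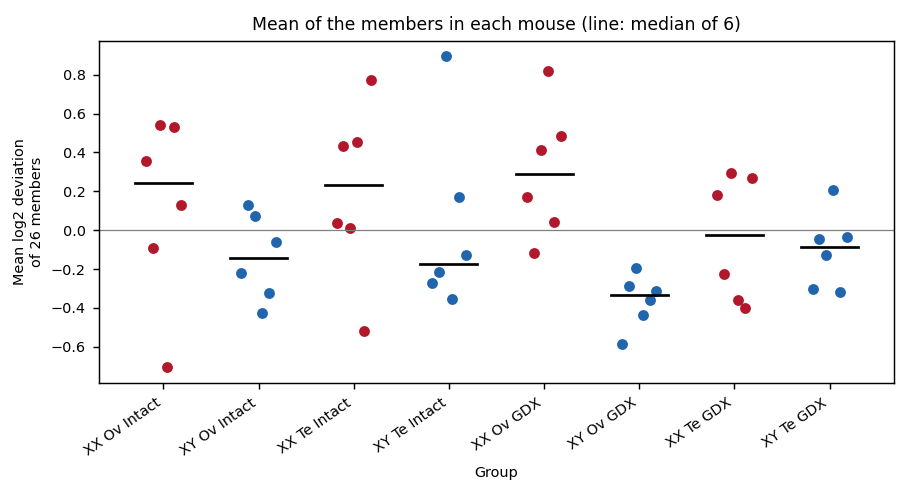
Mean log2 deviation of the 26 members in each mouse (y axis) by group (x axis), red for XX and blue for XY, with the median of 6 as a black line. On this TMM scale XY Ov GDX lies wholly below 0, and XY Te Intact holds a single mouse at 0.89.

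Gonad type in intact mice, ovaries against testes, moved 3 of 26 members, where 25.3% of all genes passed. Insig2 was lower with ovaries, at -0.72 ± 0.14 (adjusted p = 0.00013), Ggps1 was higher by 0.35 ± 0.12 (adjusted p = 0.031) and Lbr was higher by 0.33 ± 0.10 (adjusted p = 0.016). Ggps1 lost its call in 13 of 56 settings and was 0.17 (adjusted p = 0.12) with 1 surrogate variable, and Lbr lost its call in 2. The count ran from 1 to 6 when each library was left out in turn, 1 without XX Ov Intact replicate 6 or XY Ov Intact replicate 6 and 6 without XX Ov Intact replicate 3. It was 5 without XX Ov Intact replicate 5 or XY Ov Intact replicate 2. The members' median log2 fold change was -0.13, against 0.04 over all genes. The synthesis enzymes Sqle, Cyp51 and Idi1 gave -0.29, -0.38 and -0.11, none past the test. Of the lymphocyte markers 5 of 6 were higher with ovaries, with a summed level of 2.57 to 21.2 CPM against 1.13 to 7.66 CPM with testes. Of the Kupffer cell markers 3 of 6 were higher, at 264 to 998 against 210.3 to 705 CPM. Of the sinusoidal endothelial and stellate markers 1 of 5 and 1 of 6 were higher, of the cholangiocyte and hepatocyte markers 1 of 5 and 1 of 6 were lower, and 0 of 3 neutrophil markers passed. Their part was not tested.

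After GDX, mice born with ovaries and mice born with testes gave 0 called members in edgeR and in DESeq2, and 0 at an unadjusted p under 0.05. Over all genes 0.0908% passed, and 3.08% had an unadjusted p under 0.05. For Srebf2 the difference was 0.10 (95% interval -0.14 to 0.33), for Insig2 0.05 (-0.22 to 0.32) and for Sqle 0.12 (-0.61 to 0.85).

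Ovariectomised mice differed from intact mice with ovaries in 14 of 26 members, 5 higher and 9 lower, where 69.4% of all genes passed, 36% higher and 33.4% lower. Srebf2, Scap, Lss, Dhcr7 and Npc1 rose, with Lss at 0.74 ± 0.21 (adjusted p = 0.002), Srebf2 at 0.56 ± 0.12 (adjusted p = 8.6e-05) and Npc1 at 0.54 ± 0.13 (adjusted p = 0.00022). Ggps1 fell, at -1.06 ± 0.12 (adjusted p = 1.1e-09), as did Ebp at -0.74 ± 0.12 (adjusted p = 8.8e-07) and Insig2 at -0.64 ± 0.14 (adjusted p = 7.4e-05). Idi1, Insig1, Tm7sf2, Lbr, Sc5d and Stard4 fell as well, at -0.62 to -0.36. Regulators, late-step enzymes and transport genes each had members that rose and members that fell, and the members' median was 0.02 against 0.06 over all genes.

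Castrated mice differed from intact mice with testes in 11 members, 2 higher and 9 lower, where 63.3% of all genes passed, 33.4% higher and 29.9% lower. Npc1 rose by 0.52 ± 0.13 (adjusted p = 0.00042) and Srebf2 by 0.42 ± 0.12 (adjusted p = 0.0027). Insig2 fell, at -1.41 ± 0.14 (adjusted p = 4.9e-11), as did Idi1 at -0.79 ± 0.28 (adjusted p = 0.014) and Insig1 at -0.72 ± 0.15 (adjusted p = 0.00011). Ggps1, Stard4, Sc5d, Acat2, Ebp and Hsd17b7 fell as well, at -0.66 to -0.38. Sqle and Cyp51, at -0.19 and -0.22, did not pass.

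Both contrasts depended on the scaling. With library totals the median of all genes went from 0.06 to 0.27 for ovariectomy and from 0.07 to 0.27 for castration. The members' medians went from 0.02 to 0.25 and from -0.21 to 0.03. Over all genes, the share of calls that were higher went from 51.9 to 66.1% for ovariectomy and from 52.7 to 69.4% for castration. The members' calls became 8 (5 higher) and 7 (3 higher). The members that passed in every setting were Insig2, Ggps1 and Ebp for ovariectomy, and Insig1, Insig2, Ggps1, Stard4 and Npc1 for castration, but their sizes moved. With 1 surrogate variable the ovariectomy values of Ggps1 and Ebp were -0.55 and -0.20, and the castration values of Ggps1 and Npc1 were -0.37 and 0.32. In that fit the 5 members that rose after ovariectomy did not pass, with Lss at 0.30, Srebf2 at 0.18 and Npc1 at 0.18, nor did Srebf2 after castration, at 0.20 (adjusted p = 0.055). The neutrophil markers were also lower after GDX, in 3 of 3 tested for ovariectomy and in 2 of 3 for castration, and their summed level was 1.52 to 781 CPM in intact and 0.0786 to 67.5 CPM in GDX mice. After ovariectomy 3 of 6 Kupffer cell and 4 of 6 lymphocyte markers were lower, 3 of 5 cholangiocyte markers were higher, 4 of 6 stellate markers passed (3 higher), 4 of 6 hepatocyte markers passed (2 higher) and 2 of 5 sinusoidal endothelial markers passed (1 higher). After castration 3 of 6 stellate markers were higher, 3 of 5 sinusoidal endothelial and 3 of 5 cholangiocyte markers passed (2 higher in each), 2 of 6 hepatocyte markers passed (1 higher), 1 of 6 Kupffer cell markers was lower and 1 of 6 lymphocyte markers was higher. In intact against GDX mice the summed level was 210.3 to 998 against 133 to 1003 CPM for Kupffer cells, 239 to 497 against 210.1 to 669 CPM for stellate cells, 9.65 to 126 against 20.3 to 141 CPM for cholangiocytes, 131 to 237 against 120.1 to 319 CPM for endothelial cells and 1.13 to 21.2 against 1.65 to 9.19 CPM for lymphocytes. All of these ranges overlapped, and the part of these cells was not tested.

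The drop in Insig2 was deeper after castration than after ovariectomy, the difference being -0.77 ± 0.19 (adjusted p = 0.012) with a 95% interval of -1.15 to -0.39. It was the 1 member of 26 to pass, where 5.6% of all genes did, and it passed under all 7 alternatives and without each library in turn. Leaving out XX Ov Intact replicate 3 brought the count of members to 3. By its arithmetic, this contrast equals ovaries against testes in intact mice, -0.72 for Insig2, minus the same difference after GDX. It is therefore not independent of the intact result given above.

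**Figure D4:**
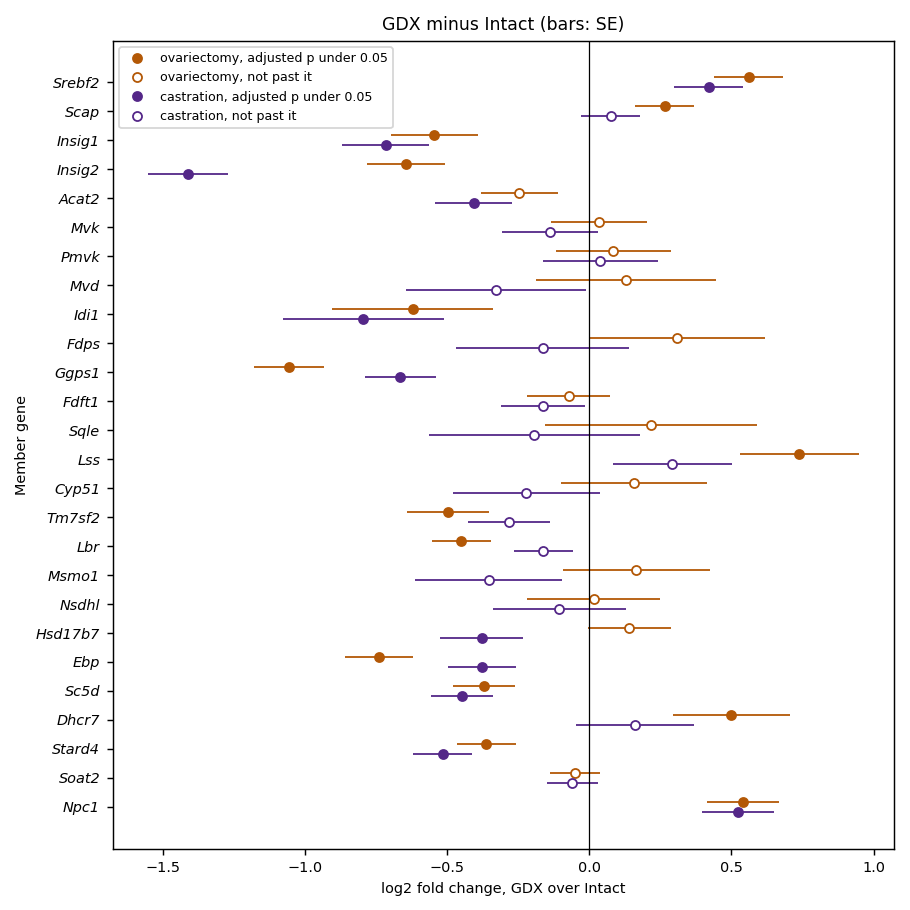
log2 fold change of GDX over Intact (x axis) for each of the 26 members (y axis), for ovariectomy (orange) and castration (purple), with bars of 1 standard error and filled points for an adjusted p under 0.05. Insig2 sits at -0.64 for ovariectomy and -1.41 for castration.

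The spread between mice of the same group was then set beside that of all genes, with no test. The within-group SD of log2 CPM had a median over the 26 members of 0.434 in intact and 0.298 in GDX mice, against 0.394 and 0.208 over all genes. It was larger in intact mice for 25 of 26 members, as for 88.3% of all genes.

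The synthesis enzymes varied together from mouse to mouse. After removal of the group means, the log2 CPM of 18 of the 25 other members correlated with that of Sqle past an adjusted p of 0.05 over all genes, where 0.908% of 15413 genes did. The test permuted Sqle within groups 100000 times over 48 mice, so that 1e-05 is the smallest p it can give. The members' median Pearson r was 0.802, against 0.0112 over all genes.

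Cyp51 had an r of 0.94 (Spearman rho 0.93, permutation p = 1e-05 for both, adjusted p = 0.0039 and 0.0043). Mvd, Fdps, Dhcr7, Pmvk, Msmo1 and Nsdhl followed at 0.90 to 0.93, and Mvk, Idi1, Lss, Fdft1, Hsd17b7, Sc5d and Acat2 at 0.76 to 0.89. Srebf2, Tm7sf2, Insig1 and Stard4 gave 0.70, 0.70, 0.68 and 0.60. Of the members that follow, none passed the test. They were Lbr (0.28), Scap (0.28), Insig2 (0.20), Soat2 (0.17), Npc1 (0.01), Ebp (-0.07) and Ggps1 (-0.20).

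The count was 13 within intact mice and 17 within GDX mice (24 each), and 19 without the 2 mice farthest from the median of Sqle, XX Ov Intact replicate 4 and XY Te Intact replicate 3. The share of all genes past the threshold rose to 20.7% without those 2 mice, and was 0.162% within intact and 6.01% within GDX mice.

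**Figure D5:**
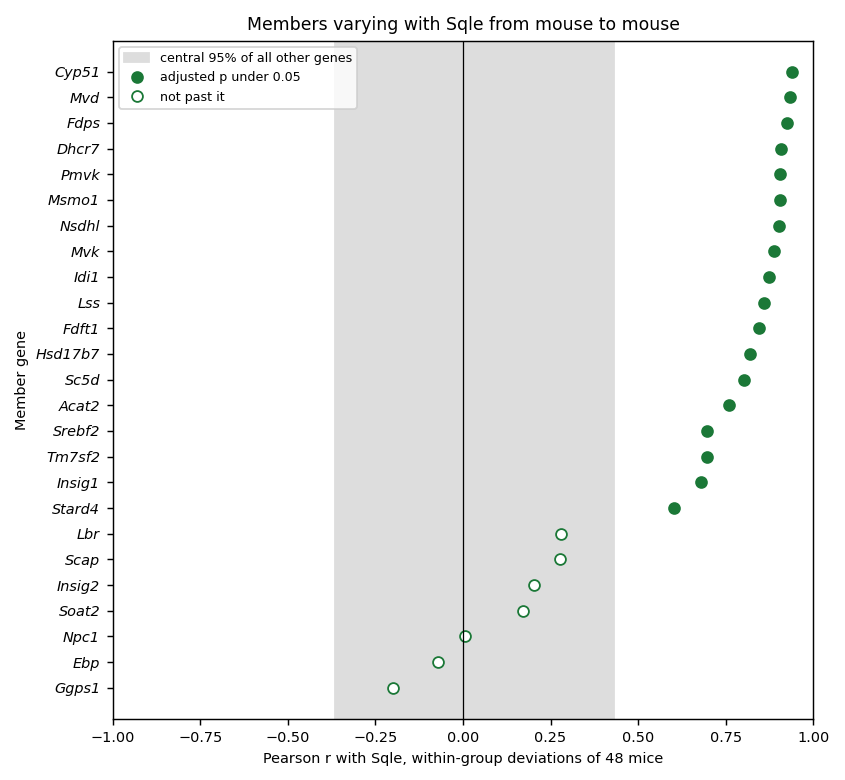
Pearson r of each member (y axis) with Sqle over within-group deviations of 48 mice (x axis), filled where the adjusted p was under 0.05. The grey band holds the central 95% of all other genes, -0.365 to 0.432, and 18 members lie above it.

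With Srebf2 as the reference, a larger share of all genes passed than with Sqle. Again 18 of 25 members passed, with a median r of 0.544, but 45.6% of all genes passed as well. Dhcr7, Lss and Hsd17b7 gave 0.82, 0.81 and 0.77, and Ggps1 and Ebp were negative at -0.70 and -0.53. Within the 24 GDX mice these were -0.20 (adjusted p = 0.65) and -0.28 (adjusted p = 0.50, permutation test), and within the 24 intact mice -0.79 and -0.58. Npc1, at 0.50 over all mice, had opposite signs by status. It gave 0.72 within intact mice (adjusted p = 0.0046) and -0.70 within GDX mice (adjusted p = 0.025, permutation test). Scap gave 0.73 within intact and -0.10 within GDX mice. Without XX Ov Intact replicate 3 and XY Te Intact replicate 5, the mice farthest from the median of Srebf2, 15 members and 16.6% of all genes passed, with Ebp no longer among them (adjusted p = 0.092). Within GDX mice 15 members, with Npc1 among them as a negative relation, and 6.95% of all genes passed. The median r over the members there was 0.674. Within intact mice 16 members and 46.0% of all genes passed.

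A further 19 genes of sterol uptake, SREBP processing and isoprenoid use were read beside the members. In XX against XY, 10 of the 19 passed, 9 of them higher, where 36.7% of all genes passed and 21.9% passed as higher. Soat1, the widely expressed cholesterol esterifying enzyme, was lower in XX, at -1.12 ± 0.12 (adjusted p = 1.5e-10). In XX Ov GDX against XY Ov GDX 6 of 19 passed, 5 higher, where 19.1% of all genes passed. For ovariectomy 13 passed, 6 higher and 7 lower, and for castration 9, 4 higher and 5 lower. Of all genes, 69.4% passed for ovariectomy and 63.3% for castration. With Sqle, 5 of the 19 passed, where 0.908% of all genes did.

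The 8 lipogenic genes that SREBP1 is known to drive gave 2 calls in XX against XY, where 36.7% of all genes passed. These were Me1 at 0.63 ± 0.09 (adjusted p = 3.1e-07) and Acss2 at 0.47 ± 0.13 (adjusted p = 0.0045). After ovariectomy 7 of the 8 passed, 6 of them higher, Fasn by 1.37 ± 0.26 (adjusted p = 1.2e-05), where 69.4% of all genes passed. After castration 7 passed, 5 of them higher, where 63.3% of all genes passed. The summed CPM of the 8 had lower medians after GDX, with overlapping ranges. They were 8331 in Ov Intact and 7899 in Ov GDX, and 11941 in Te Intact and 5482 in Te GDX. Of 6 genes listed for the oxysterol receptor LXR, Nr1h3 encodes the receptor itself. In XX against XY 5 of the 6 passed, 3 higher and 2 lower, where 36.7% of all genes passed. Abcg1 was at -1.71 ± 0.14 (adjusted p = 9.5e-14). The summed Kupffer cell markers had a median of 261 CPM in XX and 620 CPM in XY mice. Their part in Abcg1 and Soat1 was not tested. With Sqle, 1 of the 8 lipogenic genes passed, Acss2 at 0.82, and 0 of the 6 LXR genes did, where 0.908% of all genes passed.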

How the data were processed

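Liver RNA of 48 FCG mice (6 in each of 8 groups) was made into KAPA mRNA HyperPrep libraries. The authors deposited raw read counts per gene, from STAR 2.7.10a against GRCm39; the annotation release and strand setting are not given in the sources used here. The 4 summary rows were left out of library sizes and tests.

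Symbols came from reference tables. Members and lists were chosen with earlier results of these data known. Counts were scaled by TMM and tested in edgeR 4.0.16 (R 4.3.3) by the quasi-likelihood test after filterByExpr, with 8 group means and Benjamini-Hochberg adjustment over all 15414 genes. Group labels set the contrasts, and the 6 contrasts within pairs and of chromosomes with gonad were added after the group means were seen. Alternatives were DESeq2 1.42.0, other scalings and filters, 47 mice, only the groups compared, 1 surrogate variable (sva 3.50.0) and leaving out each library. Reads on genes ranged from 13071874 to 20045141 per library, and 3 reads were worth 0.15 to 0.23 CPM.

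Correlations used log2 CPM with a prior count of 2. Their p-values were adjusted over all genes in place of the planned adjustment over the relations alone. Values in all 8 groups are given for Srebf2, Insig1, Insig2, Idi1, Fdps, Ggps1, Sqle, Cyp51, Hsd17b7 and Lbr. The other members are given by pooled values, ranges or changes only, also where they were among the highest or lowest of a comparison. The code was tested on simulated counts.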

Additional observations from a re-analysis of the deposited data

Results flagged for a closer look

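Within groups of 6 mice, 28 of 208 sets of a member's CPM values (13.5%) held a highest or lowest mouse whose gap to the nearest other, as a share of the group's range, was past Dixon's 95% critical value. Over all tested genes 6.17% of sets did, and chance gives about 1 in 20. Members vary together, so these are not independent.

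The libraries concerned were few. XY Te Intact replicate 3 lay this far above the other 5 mice of its group in 15 members, with 372 CPM for Insig1, 79.2 for Acat2, 14.0 for Mvk, 18.6 for Mvd, 44.0 for Idi1, 12.5 for Fdps, 189 for Fdft1 and 105 for Sqle. It also read 252 CPM for Cyp51, 88.6 for Tm7sf2, 267 for Msmo1, 126 for Nsdhl, 318 for Ebp, 894 for Sc5d and 42.1 for Soat2. In the same mouse Srebf2 read 29.7 CPM, inside the range of the other 5. In this library 16.2% of reads mapped to several places and 14.3% were unmapped. Its TMM factor was 0.773, against 0.875 to 1.03 in the rest of its group, and a lower factor raises CPM. The part of mapping and scaling in its high values was not tested.

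XY Te GDX replicate 4 lay this far above its group in 5 members, with 239 CPM for Insig1, 27.2 for Pmvk, 56.5 for Lss, 543 for Sc5d and 128 for Stard4. XX Ov GDX replicate 4 did so for Mvk (18.4 CPM) and Hsd17b7 (113 CPM). Single values as far above their group were those of Srebf2 in XY Te Intact replicate 5 (48.1 CPM), Insig2 in XY Ov Intact replicate 2 (210.3 CPM), Hsd17b7 in XX Te Intact replicate 6 (109.8 CPM), Ebp in XY Ov GDX replicate 5 (157 CPM) and Npc1 in XY Ov GDX replicate 1 (169 CPM). Soat2 in XX Ov GDX replicate 5 (30.2 CPM) lay as far below its group.

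Castration and ovariectomy differed by a test of the difference for Insig2, at -0.77 on the log2 scale.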

How the results depend on the processing

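Counts of called members changed as follows. With library totals they were 6 for the chromosomal effect (18 as reported), 1 in intact mice (3), 5 in GDX mice (9), 8 for ovariectomy (14), 7 for castration (11), 0 for XX minus XY in Ov Intact (1) and 7 in Ov GDX (17). With no filter beyond 1 count they were 7, and with 10 counts in every library 11, for the chromosomal effect, each giving 1 in intact mice and 0 for Ov Intact, and no filter giving 7 for Ov GDX. Fits of only the groups compared gave 0 for the chromosomal effect in intact mice, 15 in GDX mice and 0 for Ov Intact. A surrogate variable gave 17 in GDX mice, 7 for ovariectomy, 7 for castration and 2 for Ov Intact. The cause of these changes was not tested, apart from fewer genes or samples where a setting removes them. Without each library in turn, counts ran from 11 to 20 for the chromosomal effect, 1 to 7 in intact and 7 to 14 in GDX mice, 1 to 6 for the gonadal effect, 12 to 14 for ovariectomy, 10 to 12 for castration and 1 to 3 for their difference. They ran from 0 to 4 in Ov Intact, 0 to 1 in Te Intact and 9 to 18 in Ov GDX.

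Direction turned for called Scap under ovariectomy with the surrogate variable (-0.0424), and otherwise for values that had not passed. With the surrogate variable these were Srebf2 for gonads (0.0938) and, under ovariectomy, Sqle (-0.128) and Cyp51 (-0.0032). With library totals under castration Sqle gave 0.0454 and Cyp51 0.0065. Without each library in turn the gonadal values ran from -0.134 to 0.0366 for Srebf2, -0.172 to 0.0374 for Insig1, -0.206 to 0.191 for Idi1 and -0.428 to 0.0800 for Sqle, and the castration values from -0.315 to 0.188 for Sqle and -0.312 to 0.0384 for Cyp51. The highest of each came without XY Te Intact replicate 3, or replicate 5 for Srebf2.

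No paired analysis was possible because each mouse has its own identifier and 1 library, and replicate numbers follow accession order. Fdps and Mvd had as few as 27 and 26 reads in a library.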
